A study of Danio rerio with 36 samples.

Results

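A group of 66 zebrafish genes had less mRNA in larvae exposed to the highest concentration of either bisphenol A (BPA) or tetrabromobisphenol A (TBBPA), out of 25531 genes listed for both chemicals. They were picked from the measured values themselves. On the log2(normalized count + 1) scale, the mean of the EC20 libraries had to lie at least 1 under the carrier control (CC) for BPA and at least 0.4 under it for TBBPA. The EC20 library also had to be the lower one in all 3 replicate pairs of both chemicals, the CC mean had to be at least 30 in both, and 14 genes were left out by identifier. Of those 14 genes, klf9 (ENSDARG00000068194) met the other conditions, with differences of −1.83 for BPA and −0.90 for TBBPA, and the remaining ones did not. The comparison of the EC20 with the CC therefore describes the 66 genes and tests nothing about them.

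The larvae were AB/Tub hybrids. They were exposed to BPA, to TBBPA or to the carrier for 48 h, from 72 to 120 h postfertilization (hpf), and RNA was taken from pools of 20 whole larvae of normal appearance. Each chemical had its own CC, which the study's methods give as 0.5% DMSO. The control labels read carrier control 0.5%, followed by the name of the chemical of that series. Each chemical also had 5 concentrations in 10-fold steps: 0.00483, 0.0483, 0.483, 4.83 and 48.3 µM BPA, or 0.000292, 0.00292, 0.0292, 0.292 and 2.92 µM TBBPA. The highest of each was the EC20 of that chemical, and each group had 3 replicates from different clutches, 36 libraries in all. The depth was 6056692 to 16520859 reads on genes per BPA library (median 7235878) and 7865327 to 11478099 per TBBPA library (median 9029284). Replicate 3 of 4.83 µM BPA stood apart most from its replicates, with a chi-square per degree of freedom of 31.9 and 27.3 against them. Other BPA libraries came near: 22.3 and 26.8 for CC replicate 2, and 20.7 and 15.7 for EC20 replicate 1. Replicate 2 of 0.000292 µM TBBPA, also left out of some fits, had 6.74 and 7.29. By this measure it differed little from replicate 3 of the TBBPA EC20, with 7.47 and 6.82. Calls at the BPA EC20 for single genes and gene lists include it unless stated, and several results are also given without it.

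TBBPA is BPA with bromine atoms on its phenol rings. BPA is known as an endocrine disruptor that can bind nuclear hormone receptors. At the age sampled here, a larva has working cone photoreceptors, an active stress axis and clock, neurons that secrete peptides, and a gut that takes over from the yolk. Because whole larvae were sequenced, fewer cells of a type and less RNA per cell cannot be told apart.

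At 48.3 µM BPA the 66 genes were 2.01 to 10.4 times lower than in the CC (median 2.53), and at 2.92 µM TBBPA 1.32 to 1.92 times lower (median 1.41). Each of the 66 genes lay further under the CC in BPA than in TBBPA, as the thresholds favour, and the concentrations differ. The size of the BPA difference told little of the size of the TBBPA difference, with a Pearson r of 0.05 across the 66 genes, which share libraries and were chosen on both axes. The 3 BPA EC20 libraries were all under the 3 CC libraries for 61 of the 66 genes (17.4% of all genes tested), and the TBBPA libraries for 48 (9.59%). Of the 13144 genes with a CC mean of at least 30 in both chemicals, 561 met the BPA conditions and 322 the TBBPA conditions. The 67 genes that met both, klf9 among them, were 11.9% of the first set and 20.8% of the second, beside the 2.45% of the 13144 genes that met the TBBPA conditions and the 4.27% that met the BPA conditions. These shares, and the counts without overlap, come from the values that chose the genes, and nothing is read from their size. The 66 genes lie in the lower left corner of the plot of both differences.

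**Figure D1:**
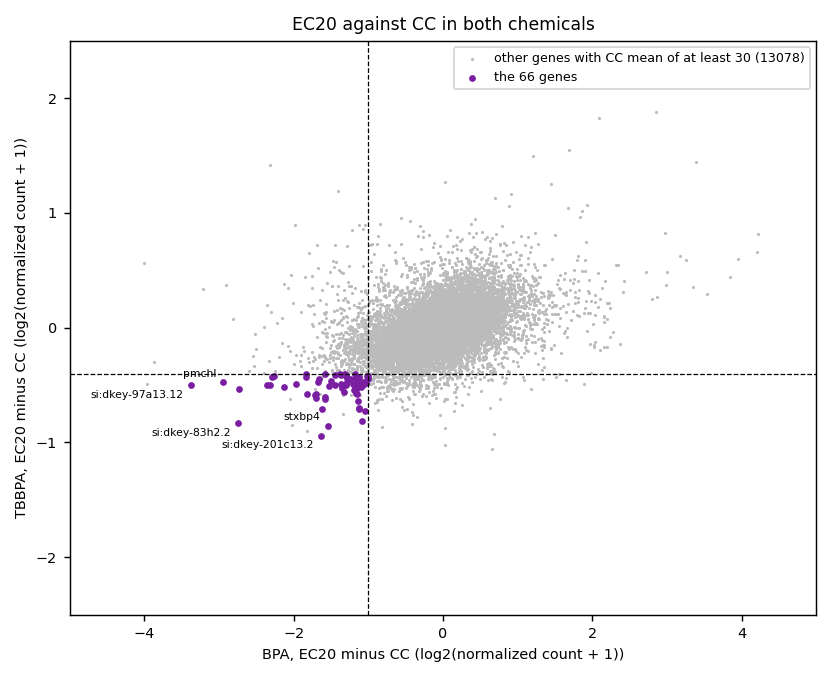
EC20 minus CC in log2(normalized count + 1) for BPA (x axis) and TBBPA (y axis), 1 point per gene with a CC mean of at least 30 in both chemicals, with the 66 genes in purple, the 13078 others in grey and the thresholds as dashed lines. The 66 genes lie in the lower left corner by construction, where grey points failed another condition, and those furthest to the left (si:dkey-97a13.12, pmchl) are not those furthest down (si:dkey-201c13.2, stxbp4).

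The thresholds run through a continuous range of values. The genes nearest to the BPA threshold inside it were st6gal1 (−1.004), nol4la (−1.01) and nr4a3 (−1.02), and just outside it lay SLC24A3 (−0.99), si:cabz01090165.1 (−0.99), si:dkey-21e2.16 (−0.98), UNC13A (−0.97) and hap1 (−0.97). For TBBPA, cbln12, bdnf and cacna1eb were just inside, each at −0.40, and pde6ha (−0.40), SLC2A1 (−0.40), cd109 (−0.39), gprin3a (−0.39) and ncaldb (−0.39) just outside. The CC minimum kept rasd2b (mean 30.2 for BPA), unc5db (31.5) and nol4la (31.7). It left out CT583651.2 (28.8), adtrp (28.4), kcnk10a (27.2), col24a1 (27.0) and guca1d (25.5). For the TBBPA CC mean, rasd2b (44.0), si:dkey-219e21.2 (49.4) and mc5ra (50.4) were the lowest inside, and si:dkey-88e18.6 (29.2) and npas2 (24.0) lay outside.

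In the limma fit over the 18 libraries of a chemical, a call needed a 1.5-fold change or more and a Benjamini-Hochberg adjusted p below 0.05. By that measure 43 of the 66 genes were called lower at the BPA EC20, where 6.93% of all 17248 genes tested were, and 9 at the TBBPA EC20, where 0.201% of 18400 were. Without replicate 3 of 4.83 µM BPA, which enlarges the estimated spread of many genes, 65 of the 66 genes were called at the BPA EC20 (11.6% of all genes), and without replicate 2 of 0.000292 µM TBBPA, 11 at the TBBPA EC20 (0.277%). The 9 genes called for TBBPA were nfil3-6, si:dkey-201c13.2, stxbp4, opn3, si:dkey-83h2.2, slco4a1, KCNJ6, klhl38b and rasd2b. Since this contrast picked the genes, these counts are a description.

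The genes were sorted by known role after their values had been seen: 6 of photoreceptors and opsins, 2 of the lens, 5 neuropeptides and peptide-processing enzymes, 4 activity-dependent genes, 3 glucocorticoid or clock genes, 7 of synapses and ion channels, 6 of axon guidance and adhesion, 4 transporters, 2 of the gut, 7 of signal transduction, 2 of muscle and LIM proteins, 3 of lipid and glycan synthesis, 7 other named genes and 8 known only by clone names. Symbols in capitals are those of the reference table for the given identifier.

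The eye genes among the 66 included a pair of guanylate cyclase activators, which restart cGMP synthesis in photoreceptors after light. The normalized counts of guca1c (ENSDARG00000030758) were 114, 264 and 156 in replicates 1, 2 and 3 of the BPA CC and 42.4, 48.3 and 49.5 at the EC20. For TBBPA they were 229, 207 and 208 in the CC and 148, 149 and 133 at the EC20. No EC20 library reached the lowest CC library in either chemical, with mean differences of −1.82 ± 0.53 for BPA and −0.58 ± 0.10 for TBBPA (SD over 3 replicate pairs). A relative that the reference table lists as GUCA1A, si:ch211-103a14.5 (ENSDARG00000100747), was at 68.5, 124 and 77.3 in the BPA CC and at 12.02, 9.91 and 15.3 at the EC20. In TBBPA it was at 133, 188 and 129 in the CC and at 90.9, 131 and 88.3 at the EC20, so that replicate 2 of the EC20 lay within the CC range.

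The retinoid carrier rbp3 (ENSDARG00000059163) shuttles chromophore between photoreceptors and pigment epithelium. Its BPA CC libraries held 1878, 4202 and 1835 normalized counts and its EC20 libraries 1167, 620.4 and 1327. The TBBPA libraries held 4325, 4287 and 3475 in the CC and 3453, 3074 and 2523 at the EC20. The groups did not overlap in either chemical, and the BPA CC library of replicate 2 stood far above the others. The BPA difference was −1.30 ± 1.26, an SD nearly as large as the mean, and the TBBPA difference −0.42 ± 0.08. Of the others, clul1, a clusterin-like gene of cones, had differences of −1.33 ± 0.94 in BPA and −0.56 ± 0.27 in TBBPA. For rhol, named as rhodopsin-like, they were −1.67 ± 0.52 and −0.45 ± 0.20.

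The non-visual opsin opn3 (ENSDARG00000052775), which is made in brain and other tissues outside the retina, was at 85.9, 102 and 75.6 in the BPA CC and at 31.5, 52.0 and 37.8 at the EC20. The TBBPA libraries gave 92.7, 72.1 and 89.4 in the CC and 55.3, 49.1 and 50.6 at the EC20. Its TBBPA difference of −0.70 ± 0.14 was the largest among the 6 photoreceptor and opsin genes, and its BPA difference of −1.12 ± 0.26 the smallest among them. In the lens, grifin, a galectin-related lens protein, had differences of −1.58 ± 1.33 and −0.62 ± 0.54, and its TBBPA groups overlapped. MIP (ENSDARG00000013963), the water channel of lens fibers, had −1.10 ± 0.96 and −0.51 ± 0.31. For MIP the groups overlapped in both chemicals, with 302, 108 and 126 at the BPA EC20 against a lowest CC library of 277, and 499, 893 and 699 at the TBBPA EC20 against a lowest CC library of 861.

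Among the photoreceptor genes other than opsins, 61 were tested in each chemical, 4 of them among the 66. At the BPA EC20, 43 of the 61 were called lower and none higher, with a median difference of −1.22 beside −0.02 over all genes tested. Only guca1d (ENSDARG00000044629) was called lower at the TBBPA EC20, at −0.96, and the median was −0.21 beside −0.01 over all genes. The summed level of the list went from 68396 to 99526 in the BPA CC libraries to 24509 to 36723 at the EC20, and from 90925 to 97658 to 75036 to 85896 for TBBPA, with no overlap in either. Of 19 opsins tested in BPA, 8 were called lower, and of 22 in TBBPA, 1 was, opn3. Of 23 lens and cornea genes, grifin among them but not MIP, 6 were called lower for BPA. For TBBPA cryaa, an alpha crystallin, alone was called, with a difference of −0.59. The list medians were −0.58 for BPA and −0.33 for TBBPA. Under the CC were 21 of the 23 genes for BPA and 22 for TBBPA, beside 51.4% and 51.1% of all genes. These genes share libraries, so they do not count as independent. The summed level of the lens and cornea list overlapped in both chemicals. It was 47466 to 159963 in the BPA CC and 35853 to 81978 at the EC20. For TBBPA it was 57762 to 88168 in the CC and 44511 to 72625 at the EC20. The part of these lists in the values of the 6 photoreceptor and opsin genes and the 2 lens genes was not tested.

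The 5 genes of neuropeptides and their processing held precursors and cleaving enzymes. The precursor gene vgf (ENSDARG00000105529), made in neurons and endocrine cells, was at 807, 861 and 1081 in the BPA CC and at 231, 182 and 293 at the EC20. For TBBPA it was at 1223, 1058 and 1055 in the CC and at 717, 873 and 789 at the EC20, and the groups were apart in both chemicals. The prohormone convertases, which cleave such precursors, had differences of −1.45 and −0.41 for PCSK1 (ENSDARG00000002600) and −1.37 and −0.42 for pcsk2 (ENSDARG00000019451). Neither was called in either chemical (adjusted p from limma 0.139 and 0.186 for BPA, 0.105 and 0.0783 for TBBPA). Their BPA EC20 libraries all lay under the CC libraries, but these libraries chose the genes. The BPA fit included the library that stood apart. There PCSK1 and pcsk2 differed from the mean of the other replicates of its group by −3.41 and −3.62. Without that library, 65 of the 66 genes and 11.6% of all genes were called lower at the BPA EC20. The part of that library in the adjusted p of PCSK1 and pcsk2 was not tested. The somatostatin precursor sst1.1 had differences of −1.16 ± 0.16 and −0.53 ± 0.07.

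The melanin-concentrating hormone precursor pmchl (ENSDARG00000076978), which acts in fish on background color and feeding, had the second largest BPA difference among the 66. It was at 47.3, 20.7 and 53.9 in the BPA CC and at 6.87, 2.48 and 3.60 at the EC20, where few reads remained, a difference of −2.95 ± 0.55. Its TBBPA values were 71.3, 101 and 109 in the CC and 44.1, 91.8 and 71.1 at the EC20, with overlap. Its TBBPA difference was −0.47 ± 0.30.

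The activity-dependent genes, which neurons and other cells switch on after stimulation, were represented by fosaa, nr4a1, nr4a3 and bdnf. The neurotrophin bdnf (ENSDARG00000018817) was at 223, 292 and 268 in the BPA CC and at 60.7, 104 and 101 at the EC20. In TBBPA it was at 365, 327 and 355 in the CC and at 276, 282 and 236 at the EC20, with no overlap in either chemical. The Fos family gene fosaa had differences of −1.70 and −0.58, the orphan receptor nr4a1 −1.35 and −0.50, and its relative nr4a3 −1.02 and −0.42. Of the 16 activity-dependent genes tested, 8 were called lower and 1 higher at the BPA EC20 and none at the TBBPA EC20 in the limma fit. Not among the 66 were npas4a (ENSDARG00000055752), with differences of −1.62 for BPA and 0.06 for TBBPA, and egr1 (ENSDARG00000037421), with −1.34 and −0.06.

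Of the genes that respond to glucocorticoids or to the clock, fkbp5 (ENSDARG00000028396), a co-chaperone of the glucocorticoid receptor and in mammals a standard gene of its response, was at 1470.2, 2090.1 and 1650.0 in the BPA CC and at 412, 736 and 507 at the EC20. With TBBPA it lay at 1756, 1031 and 1235 in the CC and at 1034, 775 and 1045 at the EC20. The TBBPA groups overlapped by a few counts, and the differences were −1.68 ± 0.16 and −0.47 ± 0.27. The bZIP repressor nfil3-6 (ENSDARG00000087188), of a family that acts at the clock's D-boxes, was at 864, 685 and 829.8 in the BPA CC and at 285, 207 and 286 at the EC20. Its TBBPA CC libraries ranged more widely, at 1303, 1541 and 1011, than its EC20 libraries, at 781, 777 and 769. The deubiquitinase usp2b, whose mouse relative is under clock control, had differences of −1.13 and −0.48.

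Of 32 clock and light-regulated genes tested, 4 were called lower and 4 higher at the BPA EC20, where 7.07% of all genes were called higher. At the TBBPA EC20, 1 was called lower (nfil3-6) and none higher, where 0.658% of all genes were called higher. The list medians were −0.30 for BPA, with 22 of the 32 under the CC, and −0.26 for TBBPA, with 29 of the 32. Not among the 66, the light-induced period gene per2 (ENSDARG00000034503) differed by −1.16 (adjusted p from limma 3.59e-05) for BPA and −0.34 (adjusted p 0.00889) for TBBPA, and the photolyase relative cry5 (ENSDARG00000019498) by −0.91 (adjusted p 0.000544) and −0.33 (adjusted p 0.0165). Also outside the 66, nr1d2a differed by −0.33 (adjusted p from limma 0.241) for BPA and −0.52 (adjusted p 0.00328) for TBBPA. The 4 called higher for BPA were nr1d4b (2.19), nr1d4a (1.33), aanat2 (1.31) and rorcb (1.11). Without replicate 3 of 4.83 µM, 9 of the list were called lower and 4 higher for BPA. Among 22 glucocorticoid-regulated genes, 5 were called lower and 2 higher for BPA, and among 23 for TBBPA klf9 alone was called. The 2 higher for BPA were CEBPD (0.84) and sgk1 (0.73). The brain stress hormone crhb, which drives the stress axis, differed by −1.40 (adjusted p from limma 0.000241) for BPA and −0.37 (adjusted p 0.0918) for TBBPA.

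The 7 genes of synapses and ion channels had BPA differences of −1.71 to −1.09 and TBBPA differences of −0.71 to −0.40. KCNJ6 (ENSDARG00000058985), a potassium channel opened by G proteins, was at 87.8, 67.1 and 67.3 in the BPA CC and at 18.9, 21.1 and 26.1 at the EC20. The TBBPA values were 91.5, 78.7 and 97.8 in the CC and 59.07, 52.3 and 62.5 at the EC20, apart in both, with differences of −1.71 and −0.61. RAB3A, a GTPase of synaptic vesicles, had −1.52 and −0.50, and camk2b2, a calcium-dependent kinase of the postsynapse, −1.13 and −0.71. The scaffold shank3b had −1.09 and −0.47, the calcium channel cacna1eb −1.18 and −0.40, the Arf exchange factor IQSEC2 −1.15 and −0.58, and the secreted synapse organizer cbln12 −1.38 and −0.40. RAB3A, shank3b, cacna1eb and IQSEC2 were not called at the BPA EC20 (adjusted p from limma 0.186, 0.132, 0.141 and 0.388). Their EC20 libraries all lay under the CC libraries, but these libraries chose the genes. That fit included the BPA library that stood apart. There these genes differed from the mean of the other replicates of its group by −4.27, −2.62, −2.51 and −4.66, in the same order. Without that library, 65 of the 66 genes and 11.6% of all genes were called lower at the BPA EC20. The part of that library in the adjusted p of these genes was not tested. KCNJ6 alone of the 7 was called at the TBBPA EC20.

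Of 25 neuronal markers, among them shank3b, 13 were called lower at the BPA EC20 and none higher, with a median of −0.76, and none was called at the TBBPA EC20, with 1 of the 66 genes in the list. Their summed level was 31379 to 36578 in the BPA CC and 19592 to 25985 at the EC20, and 42963 to 44547 and 37559 to 42776 for TBBPA. Axon guidance and adhesion were represented by rtn4rl2a (Nogo receptor-like; −2.36 and −0.50), unc5db (a netrin receptor; −1.45 and −0.50), islr2, sema3h (a secreted semaphorin), efna1a (an ephrin) and cdh24a (a cadherin). The BPA values of rtn4rl2a were 141, 181 and 178 in the CC and 19.5, 31.0 and 51.3 at the EC20, and the TBBPA values were 298, 289 and 239, and 208, 200.6 and 175.

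In the gut, fabp6 (ENSDARG00000044566), the bile acid binding protein of its distal part, was at 6401, 6840.2 and 5638 in the BPA CC and at 1939.7, 1982 and 1801 at the EC20. Under TBBPA, fabp6 was at 3384, 3542 and 4279.5 in the CC and at 2065, 3035 and 2432 at the EC20, with differences of −1.72 ± 0.07 and −0.58 ± 0.32. The metalloprotease mep1a.2 of the gut brush border had −1.35 ± 1.12 and −0.52 ± 0.40. Of 19 intestinal genes tested in BPA, 9 were called lower, and of 20 in TBBPA only slc10a2 (ENSDARG00000014916), the ileal bile acid transporter, was, at −0.76. Its BPA difference was −0.04 (adjusted p from limma 0.931).

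Among the transporters, RHCG (ENSDARG00000003203), an ammonia channel of gill and skin ionocytes, was at 381, 328 and 536 in the BPA CC and at 181, 191 and 145 at the EC20, and at 1104, 1476 and 1333 in the TBBPA CC and 822, 1079.9 and 963 at the EC20. The urea transporter slc14a2 had differences of −1.84 and −0.41, the glutamate transporter slc1a8b −1.37 and −0.49, and the organic anion transporter slco4a1 −1.05 and −0.73. The fucosyltransferase fut9d had −2.32 and −0.50 and the fatty acid elongase elovl8a −2.29 and −0.43. The BPA values of elovl8a varied little between replicates, at 62.7, 68.3 and 65.2 in the CC and at 12.6, 12.4 and 12.6 at the EC20. Of the muscle genes, klhl38b had −1.14 and −0.64 and the LIM protein fhl2b −2.13 and −0.51. Of 46 skeletal muscle genes, 15 were called lower and 1 higher for BPA, and klhl38b alone was called for TBBPA. The stxbp4 gene (ENSDARG00000076997), which encodes a syntaxin-binding protein, had the second largest TBBPA difference among the 66, −0.86, with −1.55 for BPA. The annexin partner s100a10a had differences of −1.19 and −0.55, and rasd2b, a small Ras-like GTPase, −1.09 and −0.81.

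Among the 66, the largest difference in each chemical belonged to a gene with a clone name. The si:dkey-97a13.12 gene (ENSDARG00000095649) was at 194, 284 and 179 in the BPA CC and at 18.3, 13.6 and 30.6 at the EC20, a difference of −3.38 ± 0.89 that no other gene of the 66 reached, and differed by −0.50 for TBBPA. The largest TBBPA difference of the 66, −0.94 ± 0.04, was that of si:dkey-201c13.2 (ENSDARG00000094696), at 218, 180.2 and 199.7 in the CC and 115, 90.7 and 105 at the EC20. For BPA it was at 60.8, 149 and 114 in the CC and at 21.2, 63.2 and 24.3 at the EC20, which overlapped. The si:dkey-83h2.2 gene (ENSDARG00000117109), behind pmchl in BPA and stxbp4 in TBBPA, had differences of −2.74 and −0.84.

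The other 5 lists held none of the 66 genes. Of 14 genes of the inner retina, Muller glia and pigment epithelium, 2 were called lower and 1 higher for BPA, with a median of 0.05, and none for TBBPA, with a median of −0.06. The 7 leukocyte and thrombocyte genes had medians of 1.15 and 0.53, with 4 called higher for BPA and 1 for TBBPA. The 34 liver genes had medians of −0.78 for BPA, with 11 called lower, and 0.52 for TBBPA, with 2 called higher. For 16 epidermal genes, 4 were called lower and 2 higher for BPA and 1 higher for TBBPA, with medians of −0.07 and 0.17, and for 10 genes of cartilage, bone and connective tissue, 2 were called lower for BPA and none for TBBPA, with medians of −0.39 and 0.24. The part of cell makeup in the values of the 66 was not tested.

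**Figure D2:**
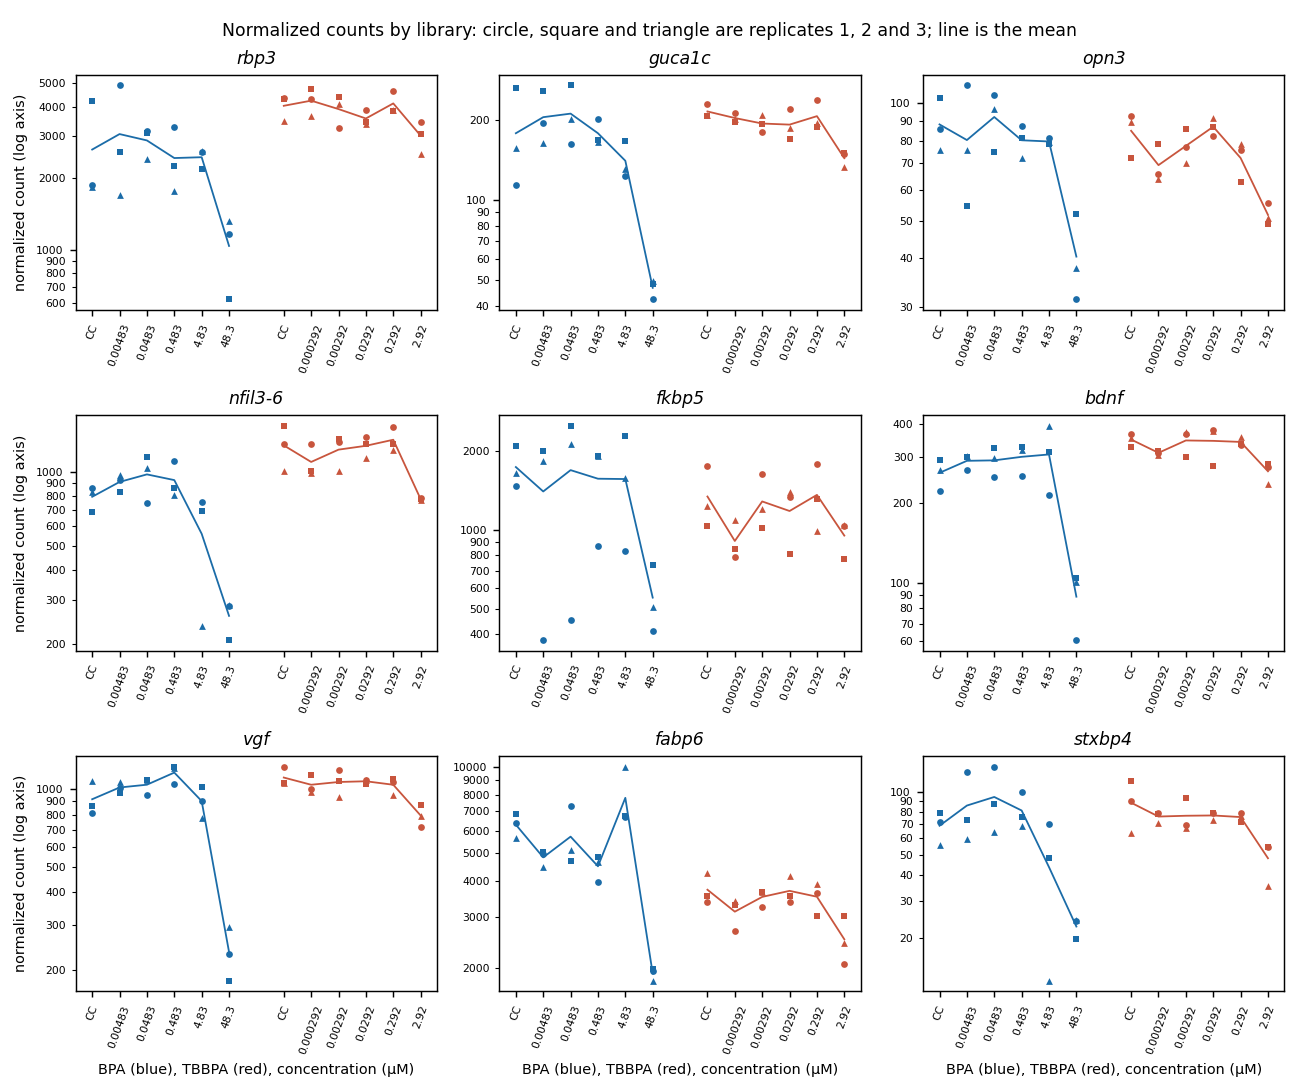
Normalized count (log axis) of 9 of the genes in each of the 36 libraries, by concentration (µM), with BPA in blue and TBBPA in red, replicates 1, 2 and 3 as circles, squares and triangles and lines through the group means. The EC20 has the lowest group mean for each gene and chemical except fkbp5 in TBBPA, whose mean at 0.000292 µM is lower, and fkbp5 in BPA shows low values of replicate 1 at every concentration between the CC and the EC20.

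The 12 libraries of the 4 lower concentrations took no part in choosing the 66 genes. Among them, the second highest concentration was compared with the 3 under it. A shift shared by all 4 lower concentrations cannot show in this contrast. At 4.83 µM BPA, limma called none of the 66 genes at an adjusted p under 0.05 (0% of 17248 genes in either direction). At an unadjusted p under 0.05, 13 of the 66 were lower (8.17% of all genes) and 4 higher (5.72%), and the lowest adjusted p was 0.341. On the recovered reads, edgeR and DESeq2 called none of the 66 (DESeq2 called 1 gene of all). At an unadjusted p under 0.05, edgeR had 8 of the 66 lower (4.1% of all genes) and 5 higher (7.87%), and DESeq2 10 lower (3.76%) and 4 higher (4.62%). The median difference was −0.26, beside −0.01 over all genes, and 43 of the 66 were lower, beside 8964 of all 17248.

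That median rested on 1 library. In replicates 1, 2 and 3 the median over the 66 genes was 0.04, −0.01 and −0.62, and without replicate 3 of 4.83 µM it was −0.01. In that library 31 of the 66 genes were over 2-fold under the mean of replicates 1 and 2, or 47.0%, beside 19.9% of all genes tested. Over 2-fold above that mean were 3 of the 66, or 4.55%, beside 4.21% of all genes tested. It had no read of usp2b, which was at 71.2 and 65.2 in replicates 1 and 2, and 1.39 of IQSEC2 (63.0 and 56.2), 5.57 of RAB3A (162 and 97.3) and 20.9 of PCSK1 (244 and 221). In contrast, fabp6 stood above its level in both other replicates there, and bdnf, opn3 and rbp3 were at 393, 79.3 and 2599, within or above the range of replicates 1 and 2. The part of library quality in these values was not tested.

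The 4 genes with the smallest unadjusted p at 4.83 µM BPA had the same direction in all 3 replicates. The stxbp4 gene had replicate differences of −0.74, −0.69 and −2.27 and a fitted difference of −1.23 (SE 0.27, adjusted p from limma 0.341). The GUCA1A relative si:ch211-103a14.5 had replicate differences of −0.60, −0.56 and −1.71, and guca1c of −0.58, −0.44 and −0.42, with a fitted difference of −0.48 (SE 0.14). The opposite direction was that of fabp6, higher in every replicate, by 0.35, 0.46 and 1.07. None of these passed the adjusted threshold.

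At 0.292 µM TBBPA, limma called none of the 66 genes either (0% of 18400 in both directions). At an unadjusted p under 0.05, 2 were lower (2.75% of all genes) and 8 higher (2.54%). The lowest adjusted p was 0.584, and edgeR and DESeq2 called none. At an unadjusted p under 0.05, edgeR had 2 of the 66 lower (2.48% of all genes) and 10 higher (3.23%), and DESeq2 2 lower (0.647%) and 7 higher (1.03%). The median was 0.06, beside 0.00 over all genes, and 25 of the 66 were lower, beside 9304 of all 18400. The 3 concentrations compared with include 0.000292 µM, where 54 of the 66 genes lay under the CC (50.5% of all genes). The CC libraries took part in the choice. FO681323.1 (0.64) and pmchl (0.38), counted as higher, were as low at 0.000292 µM as at the EC20 by group mean. The 2 lower genes were those of the lens: MIP, with −0.47, −0.29 and −0.31 in replicates 1, 2 and 3 and a fitted difference of −0.36 (SE 0.07), and grifin, with −0.32, −0.27 and −0.34. Over the 4 lower TBBPA concentrations, MIP was at 915, 1489.8 and 1126 at 0.000292 µM, 659.9, 989 and 919 at 0.00292 µM, 653, 883 and 1001 at 0.0292 µM, and 528, 890.5 and 814 at 0.292 µM. A linear trend over these concentrations gave MIP a slope of −0.20 for each 10-fold step (SE 0.03, adjusted p from limma 0.0411). It was the only one of the 66 genes called by that fit, which called 3 of all 18400 genes lower (0.0163%) and 1 higher (0.00543%). The trend was not run without replicate 2 of 0.000292 µM, which holds the highest of these MIP values. The CC mean of MIP was 972.

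Set against the CC, whose libraries took part in the choice, the median over the 66 genes was 0.07, 0.06, 0.12 and −0.21 at the 4 lower BPA concentrations in rising order and −1.34 at the EC20. For TBBPA it was −0.16, −0.05, −0.05 and −0.05, and −0.50 at the EC20. The medians over all genes tested were between −0.02 and 0.00 in every group. The values at the EC20 are fixed by the choice of the genes.

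**Figure D3:**
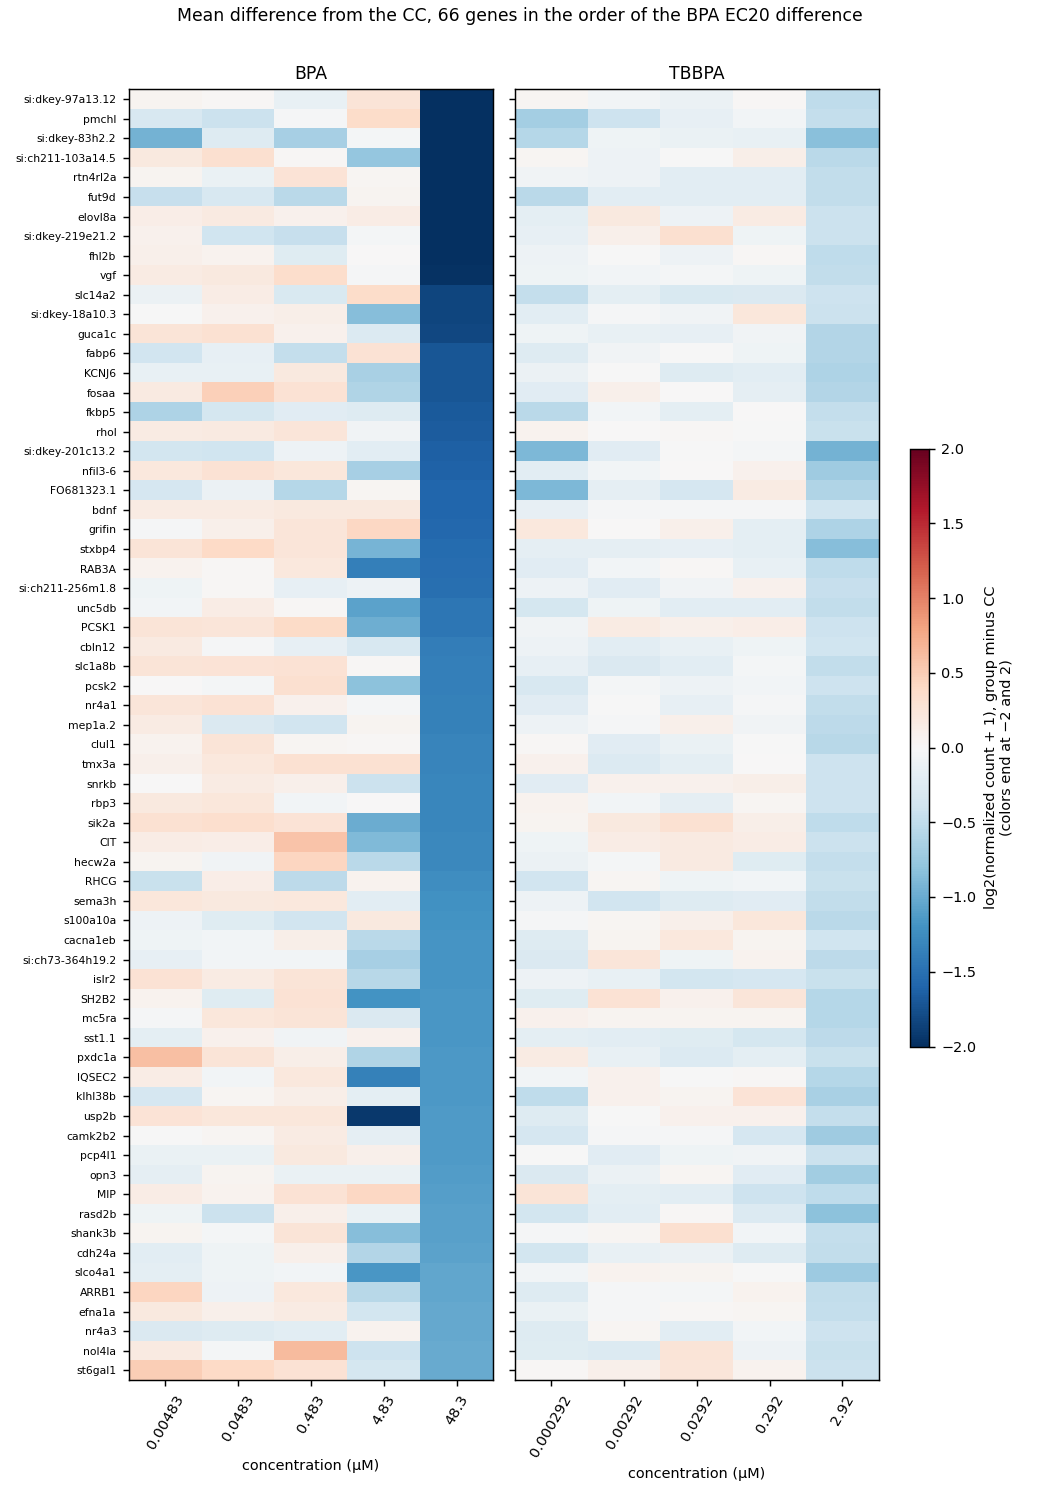
Mean log2(normalized count + 1) of each group minus the CC for the 66 genes (rows, in the order of the BPA difference) at the 5 concentrations of BPA and TBBPA (columns, µM), blue where lower and red where higher. The EC20 columns are blue throughout by construction, the 4.83 µM BPA column holds a scatter of dark cells such as usp2b, RAB3A and IQSEC2 that come from replicate 3, and the lowest TBBPA column is blue for fkbp5, si:dkey-201c13.2 and FO681323.1.

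The EC20 libraries made the selection, so how far they lie under the lower concentrations is a description, and nothing is read from its excess over all genes. The 3 BPA EC20 libraries lay under all 12 libraries of the lower concentrations for 29 of the 66 genes (6.94% of all genes tested), and under the 11 others without replicate 3 of 4.83 µM for 56 (14.2%). The TBBPA EC20 libraries did so for 13 (2.58%), or for 18 without replicate 2 of 0.000292 µM (4.04%). By library, the BPA medians at the EC20 came to −1.18, −1.67 and −1.29 and the TBBPA medians to −0.49, −0.42 and −0.42, relative to each gene's mean over the 12 lower libraries. The other libraries ranged from −0.43, in replicate 3 of 4.83 µM, to 0.22 for BPA, and from −0.10 to 0.13 for TBBPA. The lowest TBBPA group outside the EC20 was the lowest concentration, at 0.00, −0.10 and −0.10.

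**Figure D4:**
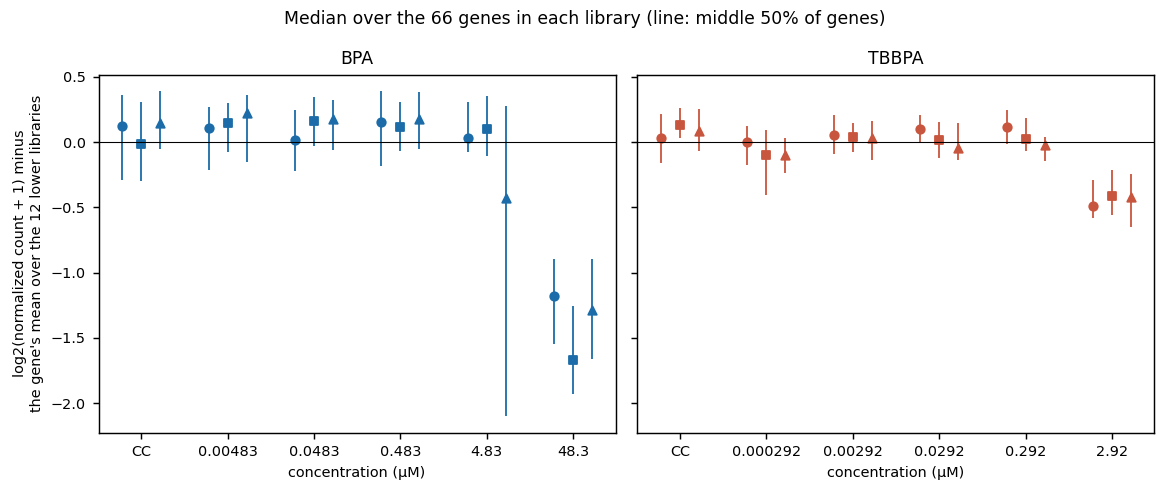
Median over the 66 genes of log2(normalized count + 1) in each library, minus each gene's mean over the 12 libraries of the lower concentrations, by concentration (µM), with replicates 1, 2 and 3 as circles, squares and triangles and lines over the middle 50% of genes. Outside the EC20, replicate 3 of 4.83 µM BPA is the lowest library at −0.43 and has the widest spread, and the TBBPA libraries lie between −0.10 and 0.13.

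For some of the genes the lower concentrations were not flat. In BPA, fkbp5 was at 380.3, 454, 866 and 832 in replicate 1 of the 4 lower concentrations, in rising order, while replicates 2 and 3 were at 1573 to 2491. Replicate 1 at the 2 lowest concentrations was thus as low as the EC20 libraries, although replicate 1 of the CC was at 1470.2. RHCG was at 76.7, 177, 127 and 277 in the same replicate 1 libraries and at 407 to 719 in replicates 2 and 3. The clone-named si:dkey-201c13.2 followed them, at 33.0, 24.2, 51.4 and 46.5 in replicate 1 and at 79.3 to 179 in the others, and so did FO681323.1, at 26.6, 28.1, 25.2 and 49.3 in replicate 1. Leaving out replicate 3 of 4.83 µM, these were among the 10 genes whose BPA EC20 libraries did not all lie under the remaining lower-concentration libraries, together with nr4a1, MIP, SH2B2, cdh24a, nol4la and rasd2b. Replicate numbers stand for clutches, and clutch and replicate cannot be told apart.

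In TBBPA, 5 of the 66 genes were as low at the lowest concentration as at the EC20 by group mean, and 0 in BPA. The conditions ask for a larger fall at the EC20 in BPA than in TBBPA. The share of all genes is not given, so nothing is read from these counts. The 5 genes in TBBPA were fkbp5, FO681323.1, fut9d, pmchl and slc14a2. The values of fkbp5 at 0.000292 µM were 789, 844 and 1088, beside 1034, 775 and 1045 at the EC20, and those of FO681323.1 (ENSDARG00000117485) were 95.5, 50.1 and 52.7, beside 107, 72.6 and 61.4. The si:dkey-201c13.2 gene came close, with 115, 93.2 and 113 at 0.000292 µM beside 115, 90.7 and 105 at the EC20, while its libraries at the 3 concentrations between were at 137 to 247. Its values at the lowest and the highest concentration overlapped with each other and with none of the other 4 groups.

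How the genes varied together was described over the lower concentrations, after the group means were taken off. The libraries of a replicate number share a clutch and each library its depth, and no test was made. In BPA, the 2145 pairs among the 66 genes had a median Pearson r of 0.04 over 12 libraries, beside −0.03 for pairs of one of the 66 with the 13175 other genes with a CC mean of at least 30. Without replicate 3 of 4.83 µM these were −0.01 and 0.00. In TBBPA, the medians were 0.05 and −0.01 (14840 other genes), and 14.9% of the pairs had an r over 0.5, beside 10.8%. In BPA that share was 29.5% beside 20.0% over 12 libraries and 17.9% beside 14.4% without replicate 3 of 4.83 µM.

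The pairs named here were chosen after their values were seen, mostly for a high r in one chemical. Over the 11 BPA libraries without replicate 3 of 4.83 µM, fkbp5 had an r of 0.98 with si:dkey-201c13.2, 0.97 with RHCG, 0.93 with nr4a1, 0.92 with si:dkey-83h2.2 and 0.91 with FO681323.1. In the 12 TBBPA libraries the r of fkbp5 and si:dkey-201c13.2 was 0.80, and the others were −0.29, 0.24, −0.04 and 0.26 in the same order. The cone gene clul1 and rbp3 had 0.84 in BPA and 0.88 in TBBPA, each over 12 libraries, and nr4a1 with nr4a3 had 0.90 and 0.57. PCSK1 and IQSEC2 had 0.996 and 0.934 over 12 libraries and 0.86 and 0.88 over 11. PCSK1 and pcsk2, whose products cleave the same kind of precursor, had 0.97 and 0.80 over 12 libraries and −0.07 and 0.12 over 11, without replicate 3 of 4.83 µM BPA or replicate 2 of 0.000292 µM TBBPA, so that 1 library decided the r in each chemical. The spread within groups was larger for the 66 genes than for the others, with a median SD of 0.28 beside 0.19 in BPA without replicate 3 of 4.83 µM and 0.22 beside 0.16 in TBBPA.

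The conditions were also applied to 2 replicate pairs at a time, and the genes so found were read in the pair left out. That pair took no part in finding these genes, but the thresholds were set with earlier results of these data known. The shares are therefore a description and no separate replication. Chosen on pairs 2 and 3, 133 genes met the conditions, 43 of them among the 66, and in pair 1 the EC20 was lower for 88 in BPA (66.2%) and for 89 in TBBPA (66.9%), and in both for 68 (51.1%). Of all 13128 genes over the CC minimum, 53.7%, 52.4% and 34.7% were. Chosen on pairs 1 and 3, 78 genes met them, 36 of them among the 66. In pair 2, 73 of the 78 were lower in BPA (93.6%), 65 in TBBPA (83.3%) and 61 in both (78.2%), beside 50.7%, 48.2% and 28.4% of 13161 genes. Chosen on pairs 1 and 2, 77 genes met them, 47 of them among the 66. In pair 3, 75 of the 77 were lower in BPA (97.4%), 70 in TBBPA (90.9%) and 68 in both (88.3%), beside 50.4%, 52.3% and 31.5% of 13059 genes.

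The size of the difference in the pair left out was smaller than the thresholds in 1 of 3 cases for BPA and in all 3 for TBBPA. The median was −0.55, −1.30 and −1.06 in pairs 1, 2 and 3 for BPA and −0.20, −0.30 and −0.33 for TBBPA, beside medians between −0.05 and 0.01 over all genes. The smallest medians were those of pair 1 in both chemicals, and the part of clutch in them was not tested. With a pseudocount of 10, the 88 genes chosen on pairs 2 and 3 had a BPA median of −0.14 in pair 1, beside −0.05 over all genes, and 55.7% of them were lower, beside 53.7%.

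**Figure D5:**
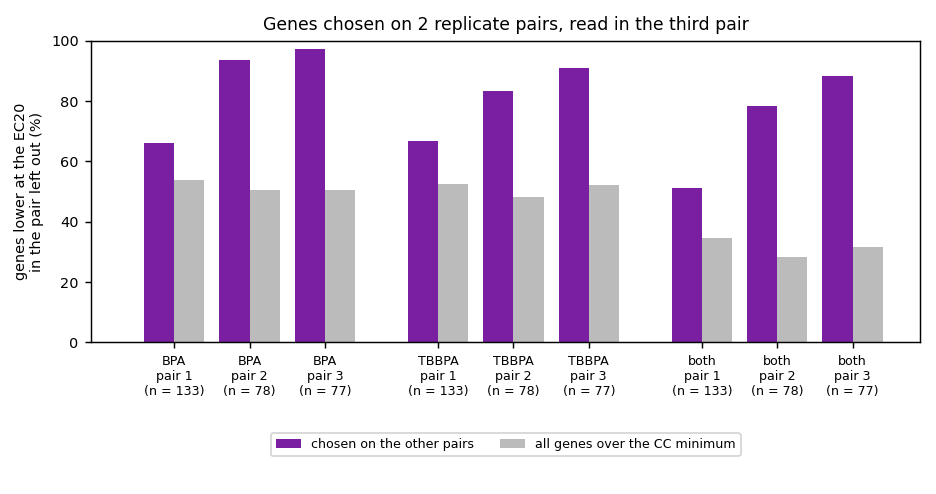
Share of genes (%) that were lower at the EC20 in the replicate pair left out, for genes chosen by the same conditions on the other pairs (purple, n under each bar) and for all genes over the CC minimum (grey), in BPA, TBBPA and both. The purple bars exceed the grey ones in all cases, by the least in pair 1, at 66.2% beside 53.7% for BPA. The thresholds were set with earlier results of these data known, so the bars are a description.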

How the data were processed

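Libraries were prepared from poly(A) RNA of pooled whole larvae. Per the study's methods and the submitters' processing notes, the authors trimmed reads with cutadapt, counted them per gene with STAR against GRCz11, and divided the counts by DESeq2 size factors. The deposited values are therefore a normalized signal per gene, here called the normalized count. Whole reads were recovered from their steps, and 100% of values were within 0.1 of a whole read. In 2 libraries (4.83 µM BPA replicate 2 and 0.000292 µM TBBPA replicate 2) the step was so near to 1 that this says little. These depths limit precision for the lowest values.

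Python 3.11.15, numpy 2.4.6, pandas 2.3.3, matplotlib 3.10.9, R 4.3.3 and limma 3.58.1 were used, with edgeR 4.0.16 and DESeq2 1.42.0 on the recovered reads as alternatives. Values were tested as log2(value + 1) with limma (trend), with a block for the replicate number because the authors' design had one, for genes with a mean of at least 10 over the 18 libraries of a chemical, two-sided and with Benjamini-Hochberg adjustment over all of them. Fold changes on this scale understate those of low genes. The fits of the contrast among the lower concentrations were also run on simulated counts. These had the same dispersion for every gene, no replicate effect and no library that stood apart, unlike the real data. The outcome is not given, and nothing is read from it. Same-numbered libraries deviated together: their correlation had a median of 0.12 in BPA and 0.17 in TBBPA, beside −0.06 and −0.08 for other pairs. Between the CC and EC20 libraries alone it was −0.04, 0.11 and 0.21 for replicates 1, 2 and 3 of BPA and 0.17, 0.09 and 0.21 for TBBPA. The numbers come from the labels and stand for repeats on different clutches. P-values measure the spread between these pools.

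The 66 genes and the gene lists were chosen with earlier results of these data known. Genes named were the 10 with the lowest difference in each chemical, the 5 with the highest CC mean, those in the lists, those next to each threshold and up to 10 called among lower concentrations. Other genes named were chosen after their values were seen.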

Additional observations from a re-analysis of the deposited data

Results flagged for a closer look

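For 5 of the 66 genes, the second highest concentration lay on one side of the 3 lower ones in every replicate of BPA and on the other side in every replicate of TBBPA. The difference between the chemicals was not tested, and the concentrations differ. The share of all genes with this pattern is not given, so nothing is read from the count of 5.

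The lens channel MIP was higher in BPA, at 0.24 on the log2 scale (0.05 to 0.47 over 3 replicates), and lower in TBBPA, at −0.36 (−0.47 to −0.29). The ephrin efna1a was at −0.51 in BPA and 0.085 in TBBPA. The repressor nfil3-6 was at −0.90 and 0.18, si:dkey-18a10.3 at −0.91 and 0.32, and si:ch211-103a14.5 at −0.95 and 0.14, in BPA and TBBPA. In these 4 genes the lowest BPA replicate was the 4.83 µM library that stood apart.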

How the results depend on the processing

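The number of genes that met the conditions depended most on the settings. It was 34 with a pseudocount of 10, 103 with a CC mean of at least 10, 28 with a CC mean of at least 100, and 77 to 133 when a replicate pair was left out, the highest without replicate 1. A pseudocount of 0.5 gave 67, TMM scaling 68, no requirement on pairs 83 and keeping the 14 genes 67. Among the lower concentrations, a linear trend called 1 of the 66 genes for TBBPA (MIP), where the contrast called 0. Without the replicate block, 0 genes were called in either chemical and the medians were −0.26 for BPA and 0.06 for TBBPA, so the block changed no call. With a replicate left out the medians were −0.41 to −0.01 for BPA and 0.04 to 0.06 for TBBPA. Without replicate 3 of 4.83 µM, chosen after seeing the data, 65 genes were called lower at the BPA EC20 and the median correlation was −0.00986. The gene lists moved too, where 11.6% of all genes were called lower. Called lower for BPA were 45 of 61 photoreceptor genes, 9 of 19 opsins, 7 of 23 lens and cornea genes and 18 of 25 neuronal markers. So were 11 of 16 activity-dependent, 11 of 19 intestinal, 12 of 34 liver, 16 of 46 muscle and 3 of 10 cartilage genes. Counts called higher moved to 3 inner retina, 2 activity-dependent, 2 liver, 1 photoreceptor and 1 cartilage gene. With a pseudocount of 10, genes chosen on 2 pairs were lower in both chemicals in 46.6%, 91.1% and 95.5% of cases in pairs 1, 2 and 3, beside 34.7%, 28.4% and 31.5% of all genes. The promoter motif count was not run.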
